A study of Mus musculus with 32 samples.

Results

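The heat shock chaperones described here are 10 genes, Hspa1a, Hspa1b, Hspa8, Hsph1, Dnajb1, Bag3, Hsp90aa1, Hspb1, Cryab and Hspe1, found by symbol among the 33280 genes of 2 count tables from a mouse stroke experiment. The rule found the members by name alone, although they were chosen with earlier results of these data known. All 10 passed the filter on low counts in both tables. RNA-seq was carried out on whole brain tissue sections and on sorted subdural CNS-associated macrophages (sdCAMs, the macrophages of the leptomeninges and perivascular spaces). All mice were wild type C57BL/6JCrl animals of both sexes, and an age is not given in the labels. CTL mice (A2, A3, A4 and B1) received the vehicle, and BLZ945 mice (C2, C3, C4 and D1) received BLZ945, an inhibitor of the CSF1 receptor that depletes brain macrophages, at 200 mg/kg by oral gavage for 7 days. At 8 weeks after treatment, when the emptied niches had been refilled, every mouse of both groups received a stroke by injection of thrombin into the middle cerebral artery, and both hemispheres were taken 1 day later. The ipsilateral hemisphere carried the stroke and the contralateral hemisphere of the same mouse served as its comparison, so that no mouse without a stroke entered any comparison. The choroid plexus was dissected away first, and sdCAMs were then sorted as CD45+CD11b+CD206+ cells that lacked CD11c, Ly6G and Ly6C.

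Heat shock proteins are chaperones that bind unfolded or aggregating proteins and help them to refold or to be degraded. In a resting cell the transcription factor HSF1 is held inactive. When proteins unfold, HSF1 forms trimers, binds heat shock elements in promoters and drives the inducible chaperones. Hspa1a and Hspa1b encode the inducible HSP70, Hspa8 encodes its constitutive counterpart HSC70, Dnajb1 is the HSP40 that feeds substrates to HSP70, Hsph1 (HSP110) and Bag3 are nucleotide exchange factors of HSP70, Hsp90aa1 is the inducible cytosolic HSP90, Hspb1 (HSP25) and Cryab (alpha-B-crystallin) are small heat shock proteins, and Hspe1 (HSP10) is the lid of the mitochondrial chaperonin. Induction of HSP70 and of small heat shock proteins around an ischaemic lesion is a well known feature of experimental stroke.

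The promoter stretches shown here are those in which a pair of neighbouring heat shock element units was found, because the stroke response of the inducible members is the measurement that follows. In RefSeq promoters of mouse build GRCm38.p6, the 250 bases before each start were searched on both strands for GAANNTTC and TTCNNGAA. Capitals mark the matches, overlapping ones joined, and each sequence is written 5′ to 3′ on the strand of its gene. Hspa1a lies at chr17:34972238-34972275 on the minus strand, Hspa1b at chr17:34959320-34959357 on the minus strand, Hspb1 at chr5:135887787-135887844 on the plus strand, Hspe1 at chr1:55088044-55088091 on the plus strand and Hsph1 at chr5:149636347-149636384 on the minus strand, all upstream of the annotated start.
Hspa1a: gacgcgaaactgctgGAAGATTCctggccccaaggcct
Hspa1b: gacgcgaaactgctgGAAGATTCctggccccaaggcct
Hspb1: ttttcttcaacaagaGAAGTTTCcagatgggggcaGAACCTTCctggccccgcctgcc
Hspe1: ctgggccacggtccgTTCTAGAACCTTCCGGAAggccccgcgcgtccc
Hsph1: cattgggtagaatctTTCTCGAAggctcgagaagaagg
A match was present in 5 of the 7 members with a RefSeq promoter, against 14.5% of 27025 genes and 12.8% of 32851 promoters. Hspe1 held alternating units overlapping into a run, found in 0.466% of all promoters. The stretches of Hspa1a and Hspa1b were the same, and the 250 bases before their starts were identical at 247 positions. Bag3 and Dnajb1 had no match in the window searched, and Hsp90aa1, Hspa8 and Cryab had no entry in the promoter table. A match describes these letters and says nothing of binding in these cells.

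Total counts ranged from 9288717 to 12781505 in the 16 tissue libraries and from 7397393 to 11081409 in the 14 sdCAM libraries used. The ipsilateral sdCAM libraries of mice A3 and C2, described as degraded RNA in the labels, held 54055 and 55155 counts and were left out, which leaves 3 ipsilateral and 4 contralateral sdCAM libraries per treatment. In the tissue table, the 2 columns of mouse A3 carry hemisphere letters opposite to the sample labels. The labels were followed, and the tissue calls are also given with both libraries exchanged. Values are CPM, normalised read counts that take library size and TMM factors into account, and a gene was called when the quasi-likelihood test of edgeR gave a Benjamini-Hochberg adjusted p below 0.05 with a log2 fold change beyond 0.59. Summed markers of CNS-associated macrophages reached 1610 to 10300 CPM in sdCAM libraries and 21.3 to 42.5 CPM in tissue, and summed neuronal markers 0 to 115 CPM and 6200 to 9450 CPM. Markers of other cell types were present in sdCAM libraries too. Summed microglia markers were 4820 to 18000 CPM there and 284 to 902 CPM in tissue. Summed endothelial markers were 56 to 2770 and 199 to 311 CPM, and oligodendrocyte markers 225 to 6100 and 4500 to 10600 CPM. In these bulk libraries, fewer cells of a type and less RNA per cell cannot be told apart.

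In tissue, the inducible HSP70 genes were the members with the widest change after stroke. Hspa1a held 30.1, 6.26, 19.2 and 12.3 CPM in the ipsilateral libraries of CTL mice A2, A3, A4 and B1, and 2.46, 4.33, 2.79 and 3.14 CPM in their contralateral libraries. In BLZ945 mice C2, C3, C4 and D1 it held 7.65, 10.5, 8.09 and 57.2 CPM on the ipsilateral side and 3, 3.76, 3.26 and 3.93 CPM on the contralateral side. The hemispheres did not overlap in either treatment, the contralateral libraries of all 8 mice lay between 2.46 and 4.33 CPM, and mouse D1 stood above every other library. Hspa1b, which encodes the same protein from a neighbouring gene, held 57.5, 15.4, 40.8 and 24.5 CPM in ipsilateral and 6.66, 9.18, 7.01 and 7.58 CPM in contralateral CTL libraries. In BLZ945 libraries it held 10.3, 24.9, 17.9 and 132 CPM on the ipsilateral and 5.04, 5.54, 7.07 and 5.99 CPM on the contralateral side. Again the ipsilateral library was the higher one in 8 of 8 mice, from 1.68 times in mouse A3 to 22 times in mouse D1, and D1 was the highest of all. Of the transcript windows of 50 bases, 66.3% of Hspa1a and 62.3% of Hspa1b also occur in transcripts of another gene, in most cases each other, so that the division of reads between the pair is uncertain.

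Averaged over both treatments, the log2 fold change of ipsilateral over contralateral tissue was 2.49 (SE 0.429, adjusted p = 0.00236, edgeR) for Hspa1a and 2.57 (SE 0.443, adjusted p = 0.00241, edgeR) for Hspa1b, and 2.54 (adjusted p = 0.00205, edgeR) for their summed counts. Without mouse D1 the values were 1.91 (adjusted p = 0.002) and 1.89 (adjusted p = 0.00137), so both calls held. With the A3 libraries exchanged the fold changes were 2.37 and 2.4, and the adjusted p-values of 0.0607 and 0.0687 ended both calls. Under that exchange 1 gene in all was called higher, against 367 with the labels followed.

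Hspb1, the small heat shock protein, and Bag3, the exchange factor that joins HSP70 to small heat shock proteins, also rose in ipsilateral tissue averaged over treatments. Hspb1 held 15, 9.26, 11.8 and 11 CPM in ipsilateral and 5.07, 4.5, 4.75 and 2.59 CPM in contralateral CTL libraries. In BLZ945 mice it held 11.6, 6.02, 9.25 and 30.5 CPM against 5.68, 2.72, 1.86 and 5.71 CPM. Every ipsilateral library exceeded every contralateral one, with within-mouse ratios from 2.05 to 5.33. Bag3 held 19.4, 21.3, 17 and 25.5 CPM against 12.4, 13.1, 11.9 and 14.3 CPM in CTL mice, and 24.5, 17.7, 18.7 and 34.9 CPM against 17.1, 8.99, 13 and 15.8 CPM in BLZ945 mice. Bag3 was higher on the ipsilateral side in 8 of 8 mice, by a narrower range of 1.43 to 2.20 times, and over both treatments its groups overlapped between 17 and 17.1 CPM. The averaged log2 fold change was 1.66 (SE 0.306, adjusted p = 0.00437, edgeR) for Hspb1 and 0.74 (SE 0.15, adjusted p = 0.00886, edgeR) for Bag3. Both calls held without mouse D1, and with the A3 libraries exchanged neither did (adjusted p = 0.121 and 0.242). Of the Hspb1 windows of 50 bases, 50.1% also occur in other transcripts, nearly all in the pseudogene Hsp25-ps1.

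Hspa1a, Hspa1b, Hspb1 and Bag3 were thus 4 of 10 members called higher in the average over treatments, where 1.93% of the 18968 tested genes were called higher and 0.0738% lower. No member was called lower. The groups of 3 members, Hspa1a, Hspa1b and Hspb1, did not overlap between hemispheres over both treatments, which held for 0.817% of genes in this direction and 0.0474% in the other. With the A3 libraries exchanged the groups of 0 members were apart, and Hspa1a, Hspa1b, Hspb1, Bag3 and Hsph1 were higher on the ipsilateral side in 7 of 8 mice in place of 8. The median log2 fold change was 0.445 over the members and -0.01 over all genes.

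The remaining members changed less in tissue. Hsph1, the HSP110 exchange factor, ranged from 382 to 832 CPM in ipsilateral and from 332 to 441 CPM in contralateral libraries and was higher on the ipsilateral side in 8 of 8 mice, with an averaged log2 fold change of 0.52 (adjusted p = 0.0438, edgeR) below the fold threshold. Hspe1 (0.37, adjusted p = 0.0725, edgeR) and Hsp90aa1 (0.25, adjusted p = 0.101, edgeR) were higher in 7 of 8 mice and did not pass. Dnajb1 (0.20) and Hspa8 (0.08) were higher in 5 of 8 mice, and Cryab (0.03) in 3 of 8. Cryab, a small heat shock protein abundant in oligodendrocytes and astrocytes, thus stood apart from Hspb1, with 57.3 to 110 CPM on the ipsilateral and 64.3 to 94.8 CPM on the contralateral side. Its level went with that of oligodendrocyte markers: the highest ipsilateral Cryab levels, 110 CPM in B1 and 109 CPM in A3, lay beside the highest summed oligodendrocyte markers, 10600 and 8540 CPM, and the lowest, 57.3 CPM in C4 and 59.7 CPM in C3, beside the lowest, 4640 and 4500 CPM. Mouse D1 held the highest ipsilateral level of Hsph1, Dnajb1, Hspa8, Bag3 and Hspe1 as well as of the inducible HSP70 genes and Hspb1.

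**Figure D1:**
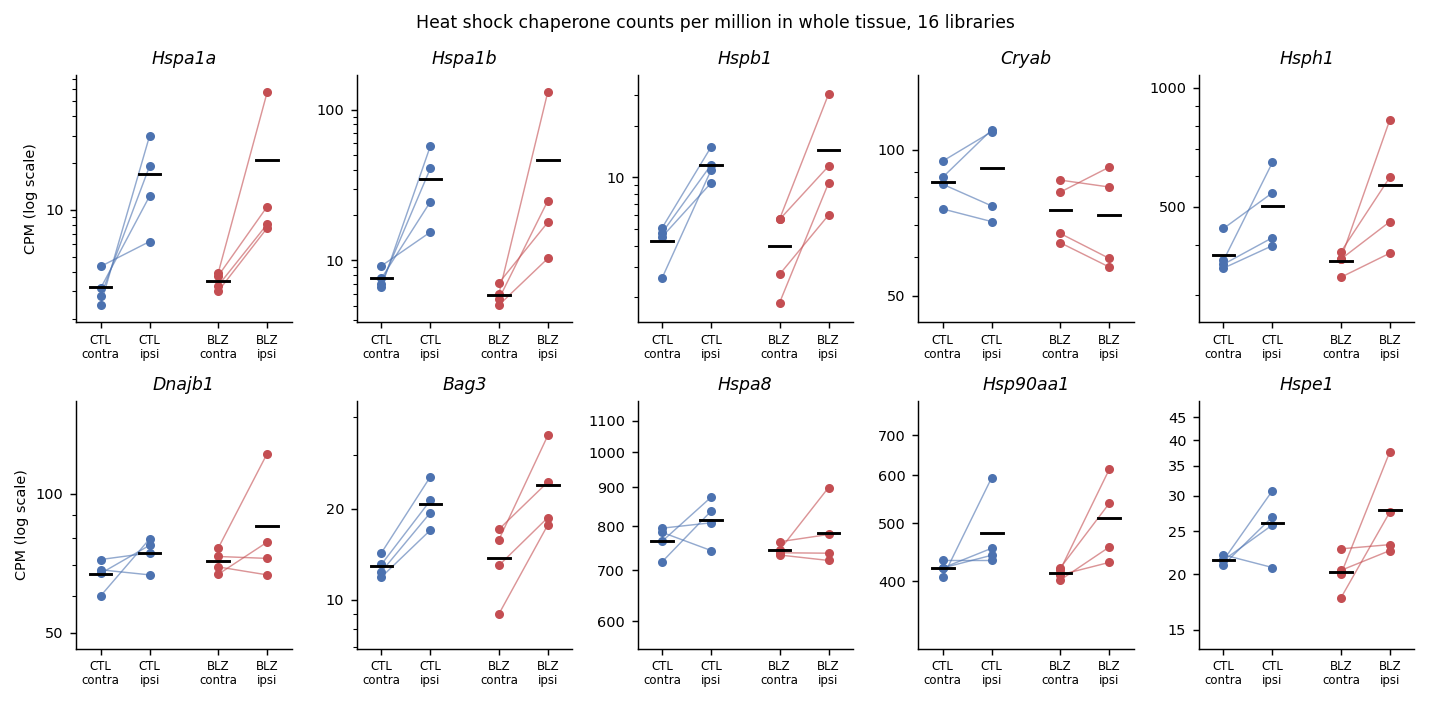
CPM (log axis) of the 10 chaperones in the 16 tissue libraries, by treatment and hemisphere; points are libraries, lines join the hemispheres of a mouse and black bars are group means. For Hspa1a, Hspa1b, Hspb1 and Bag3 all 8 lines rise from the contralateral to the ipsilateral side, and for Cryab 3 of 8 do.

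Taken treatment by treatment, the tissue calls depended on the fit. In CTL mice 0 of 10 members were called, where 0.443% of genes were called higher and 0% lower. The edgeR test gave 5 members an unadjusted p under 0.05, and DESeq2 called 2. The log2 fold changes in CTL tissue were 2.41 (SE 0.605, adjusted p = 0.133, edgeR) for Hspa1a, 2.18 (SE 0.614, adjusted p = 0.249, edgeR) for Hspa1b, 1.47 (SE 0.429, adjusted p = 0.294, edgeR) for Hspb1 and 0.69 (SE 0.212, adjusted p = 0.361, edgeR) for Bag3. With the mouse as a block, which sets each ipsilateral library against its own contralateral one, all 4 were called, at adjusted p = 0.00383, 0.00621, 0.000733 and 0.00454 (edgeR). Without mouse D1, which enters the CTL test only through the shared estimate of the spread, 2 members were called.

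In BLZ945 tissue, Hspa1b (2.96, SE 0.639, adjusted p = 0.0249, edgeR), Hspa1a (2.58, SE 0.607, adjusted p = 0.0437, edgeR) and Hspb1 (1.85, SE 0.437, adjusted p = 0.0447, edgeR) were called, 3 of 10 members, against 1.12% of genes called higher and 0.0369% lower. Bag3 did not pass (0.80, adjusted p = 0.0836, edgeR), and with the mouse as a block it did (0.79, adjusted p = 6e-04, edgeR). Without mouse D1 none of the 3 was called: the log2 fold changes were 1.58 for Hspa1b, 1.39 for Hspa1a and 1.40 for Hspb1 (adjusted p = 0.127, 0.239 and 0.13, edgeR). Leaving out A4, B1, C2, C3 or C4 left 1 member called, and with the A3 libraries exchanged 0 were called. The CTL and BLZ945 stroke responses did not differ by the test of their difference: 0 of 10 members passed in either direction (0% of genes higher and 0% lower), 0 had an unadjusted p under 0.05, and DESeq2 called 0. The widest difference was that of Hspa1b, 0.78 (SE 0.868) on the log2 scale, and the others ranged from -0.13 upward.

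Summed markers of other kinds were set beside these values in the same tissue, and some differed between the hemispheres. Summed markers of CNS-associated macrophages were 31.4 to 34.7 CPM in ipsilateral and 23.1 to 31.4 CPM in contralateral CTL libraries, and 32.3 to 42.5 against 21.3 to 25.7 CPM in BLZ945 libraries. Summed neutrophil markers were 3.10 to 6.99 CPM against 1.55 to 3.28 CPM. Summed immediate early genes, which mark recent neuronal activity or handling, overlapped at 434 to 1860 CPM against 421 to 939 CPM, and mouse D1, with the highest Hspa1a, held 866 and 829 CPM. They were lower on the ipsilateral side in A2 (434 against 439 CPM), A4 (742 against 835 CPM) and C4 (763 against 939 CPM). Choroid plexus epithelium markers summed to 6.38 to 4300 CPM over the tissue libraries, and in D1 to 49.7 CPM on the ipsilateral and 2890 CPM on the contralateral side. Their part in the chaperone values was not tested.

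In sdCAMs the direction was the other one: the small heat shock proteins fell on the ipsilateral side, and no member was called higher. Cryab held 12.0, 13.9 and 8.26 CPM in the ipsilateral libraries of CTL mice A2, A4 and B1, and 79.3, 207, 91.1 and 74.7 CPM in the contralateral libraries of A2, A3, A4 and B1. In BLZ945 mice it held 8.90, 7.53 and 6.90 CPM in C3, C4 and D1 against 140, 86.8, 132 and 51.9 CPM in C2, C3, C4 and D1. The highest ipsilateral library, at 13.9 CPM, lay below the lowest contralateral one, at 51.9 CPM. Hspb1 held 6.65, 5.84 and 3.54 CPM against 43.7, 113, 81.6 and 30.8 CPM in CTL mice, and 4.75, 9.92 and 4.02 CPM against 64.1, 60.6, 98.9 and 36.3 CPM in BLZ945 mice. The same separation was seen in all 6 mice with both libraries, whose ipsilateral to contralateral ratios were 0.0571 to 0.152 for Cryab and 0.0715 to 0.152 for Hspb1. The log2 fold change was -3.31 (SE 0.439, adjusted p = 0.00335, edgeR) for Cryab and -3.65 (SE 0.536, adjusted p = 0.00364, edgeR) for Hspb1 in CTL mice, and -3.72 (SE 0.45, adjusted p = 0.00063, edgeR) and -3.38 (SE 0.527, adjusted p = 0.00269, edgeR) in BLZ945 mice. These were the called members within each treatment, 2 of 10 in CTL (0.426% of genes higher, 2.36% lower) and 2 of 10 in BLZ945 (1.2% higher, 4.41% lower).

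Markers of several other cell types moved in the same libraries in the same direction, and those of blood leukocytes differed by treatment and mouse. Summed oligodendrocyte markers were 2210 to 6100 CPM in contralateral and 333 to 817 CPM in ipsilateral CTL sdCAMs, and 668 to 3360 and 225 to 312 CPM in BLZ945 sdCAMs. Summed endothelial markers were 894 to 2750 against 71.4 to 196 CPM in CTL and 1420 to 2770 against 56.0 to 90.0 CPM in BLZ945 libraries, and all 6 endothelial and all 6 oligodendrocyte genes were called lower on the ipsilateral side. Mural cell and fibroblast markers summed to 815 to 4530 CPM on the contralateral and 64.6 to 448 CPM on the ipsilateral side, and astrocyte markers to 250 to 1460 against 174 to 587 CPM. Oligodendrocytes, endothelial and mural cells are known to express Cryab or Hspb1. Choroid plexus epithelium markers spanned 24.5 to 37300 CPM in contralateral and 0.502 to 1500 CPM in ipsilateral libraries, although this tissue was removed before the sort. Summed monocyte markers were 105 to 201 CPM on the contralateral and 271 to 485 CPM on the ipsilateral side in CTL sdCAMs, and 204 to 971 against 255 to 461 CPM in BLZ945 sdCAMs. Summed neutrophil markers (116 to 3090 against 129 to 1020 CPM) and T and B cell markers (61.9 to 275 against 78.3 to 204 CPM) overlapped between the hemispheres. Summed markers of CNS-associated macrophages were 1610 to 6510 CPM on the contralateral and 4870 to 10300 CPM on the ipsilateral side, higher on the ipsilateral side in 5 of 6 mice and lower in A2 (4870 against 5890 CPM), and summed microglia markers ranged from 4820 to 18000 CPM over all libraries. Summed red blood cell markers were 73.1 to 1160 CPM on the contralateral and 7.1 to 150 CPM on the ipsilateral side, with some overlap. Of the listed markers, Hba-a2 was at 0 in every sdCAM library, and Syt1 and Ly6g were at 0 in the ipsilateral BLZ945 libraries. How far these cell types carried the Cryab and Hspb1 difference was not tested.

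**Figure D2:**
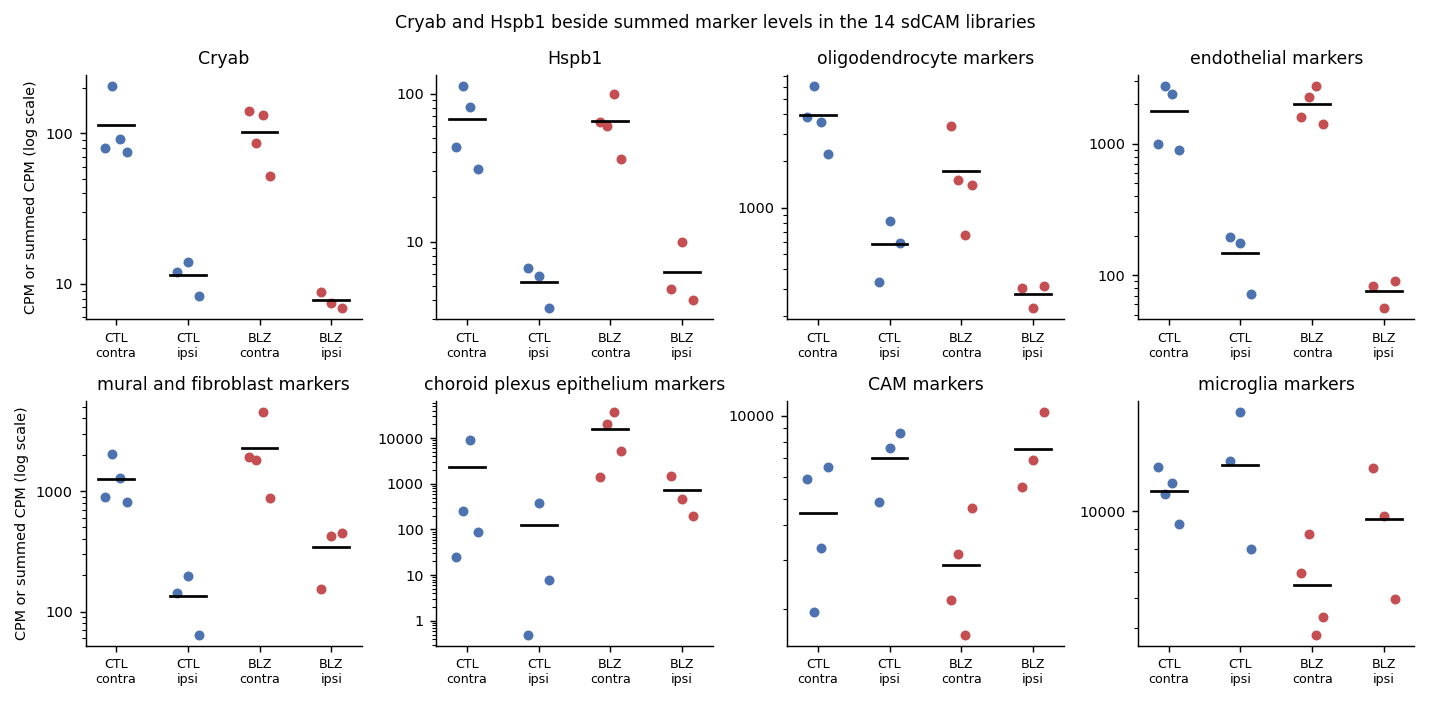
Cryab and Hspb1 CPM and the summed CPM of marker genes of 6 cell types in the 14 sdCAM libraries (log axes, 1 point per library, black bars are group means). Cryab and Hspb1 separate by hemisphere within both treatments, as do the oligodendrocyte, the endothelial and the mural and fibroblast sums, while the microglia sums overlap.

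The HSP70 genes were also lower in ipsilateral sdCAMs, with wider spread. Hspa1a held 3.64, 1.17 and 11.6 CPM against 13.6, 15.1, 14.3 and 48.2 CPM in CTL mice, and 8.53, 9.04 and 8.44 CPM against 19, 17.4, 9.49 and 28.2 CPM in BLZ945 mice. Hspa1b held 0.752, 7.78 and 7.19 CPM against 10.8, 29.6, 25 and 85.0 CPM, and 4.75, 13.1 and 9.88 CPM against 36.5, 22.5, 30.7 and 16.9 CPM. Within each treatment the hemispheres did not overlap for either gene, with 3 ipsilateral and 4 contralateral libraries, and the share of all genes for which this holds was not counted. Over both treatments they overlapped, with ipsilateral levels up to 11.6 and 13.1 CPM and contralateral levels from 9.49 and 10.8 CPM for Hspa1a and Hspa1b. Mouse B1 held the highest contralateral levels, and the ipsilateral library was the lower one in 6 of 6 mice. Averaged over treatments the log2 fold change was -1.57 (SE 0.497, adjusted p = 0.0426, edgeR) for Hspa1a and -2.18 (SE 0.532, adjusted p = 0.0122, edgeR) for Hspa1b, and -1.91 (adjusted p = 0.00451, edgeR) for their sum. The Hspa1a call was lost without any one of mice A2, A3, A4, C2, C3, C4 or D1 (adjusted p = 0.0513 to 0.118) and with all 16 libraries (-1.29, adjusted p = 0.218). With all 16 libraries Hspa1b did not pass either (-1.19, adjusted p = 0.411). Within CTL mice neither gene passed (-2.05, adjusted p = 0.141, and -2.84, adjusted p = 0.0652, edgeR), and with the mouse as a block Hspa1b did (-2.99, adjusted p = 0.0385, edgeR). Within BLZ945 mice the values were -1.09 (adjusted p = 0.357, edgeR) and -1.53 (adjusted p = 0.231, edgeR).

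Hsp90aa1, the inducible cytosolic HSP90, held 108, 107 and 117 CPM in ipsilateral and 143, 252, 160 and 165 CPM in contralateral CTL sdCAMs, and 81.0, 115 and 110 CPM against 191, 156, 197 and 130 CPM in BLZ945 sdCAMs. The groups did not overlap over both treatments. The averaged log2 fold change was -0.71 (SE 0.161, adjusted p = 0.00781, edgeR). With the mouse as a block it was -0.57 (adjusted p = 0.0303), inside the fold threshold, and with all 16 libraries -0.96 (adjusted p = 0.154). Of its transcript windows 47.5% are shared with other genes, most with the pseudogene Gm12346.

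Hspa8, the constitutive HSC70, was the 1 member above its contralateral library in 6 of 6 mice. It held 876, 439 and 945 CPM against 613, 476, 389 and 590 CPM in CTL mice, and 571, 994 and 781 CPM against 572, 454, 777 and 569 CPM in BLZ945 mice. The groups overlapped, and the averaged log2 fold change of 0.47 (SE 0.196, adjusted p = 0.112, edgeR) did not pass. Dnajb1 (-0.37), Hsph1 (-0.38), Bag3 (-0.18) and Hspe1 (0.01) did not pass either, and Dnajb1 was led by mouse B1 with 168 CPM on the ipsilateral and 244 CPM on the contralateral side. Mouse B1 also held 17300 and 18800 CPM of summed immediate early genes, within a range of 3870 to 19600 CPM over the sdCAM libraries, and the part of cell handling in its chaperone levels was not tested. In the averaged comparison 5 of 10 members were called lower (Hspa1a, Hspa1b, Hspb1, Hsp90aa1 and Cryab), where 11.1% of the 18297 tested genes were called lower and 3.91% higher. The groups of Hspb1, Hsp90aa1 and Cryab did not overlap over both treatments, as for 4.28% of genes in this direction and 1.32% in the other. The median log2 fold change was -0.55 over the members and -0.16 over all genes, and scaling to library size alone moved the latter to -0.33 and the split of called genes from 715 higher and 2030 lower to 283 and 2322.

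**Figure D3:**
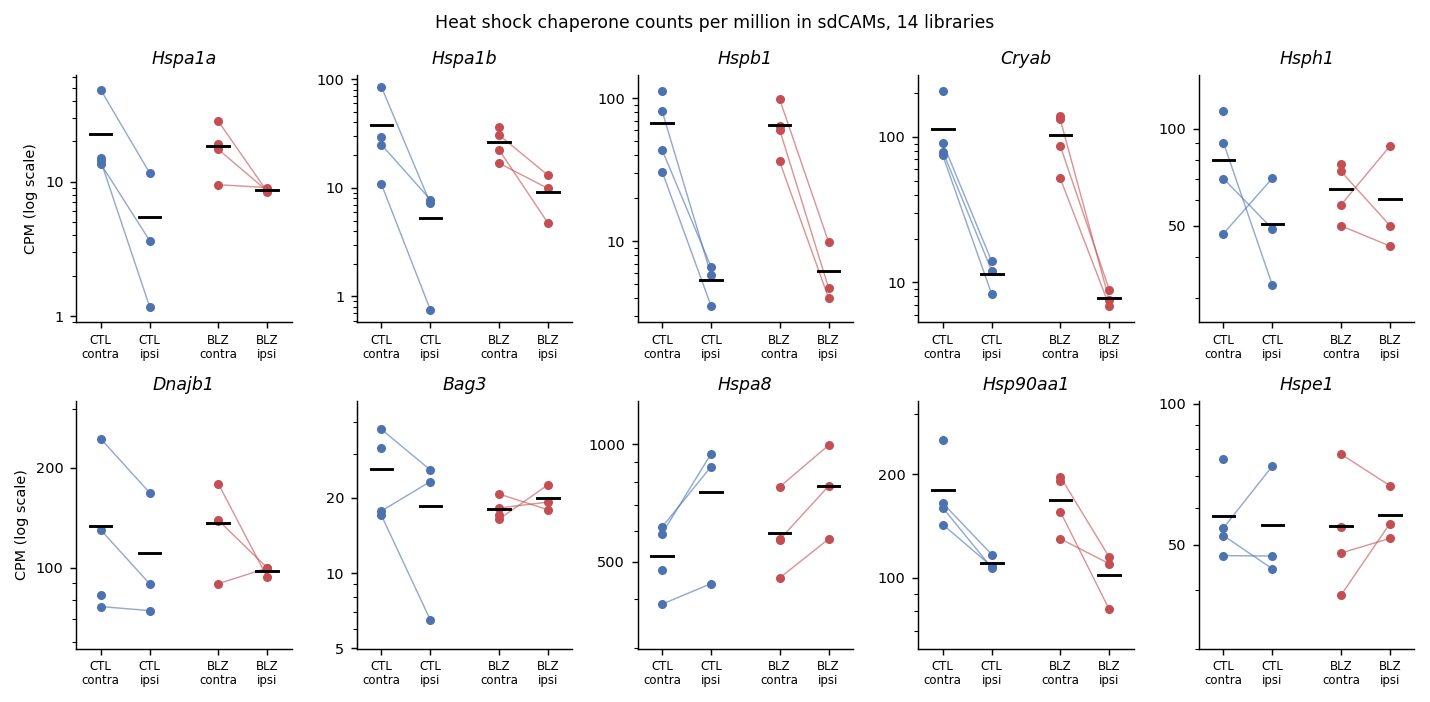
CPM (log axis) of the 10 chaperones in the 14 sdCAM libraries used, by treatment and hemisphere; points are libraries, lines join the hemispheres of a mouse where both were used and black bars are group means. All lines of Cryab, Hspb1, Hspa1a, Hspa1b and Hsp90aa1 fall from the contralateral to the ipsilateral side, and those of Hspa8 rise.

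**Figure D4:**
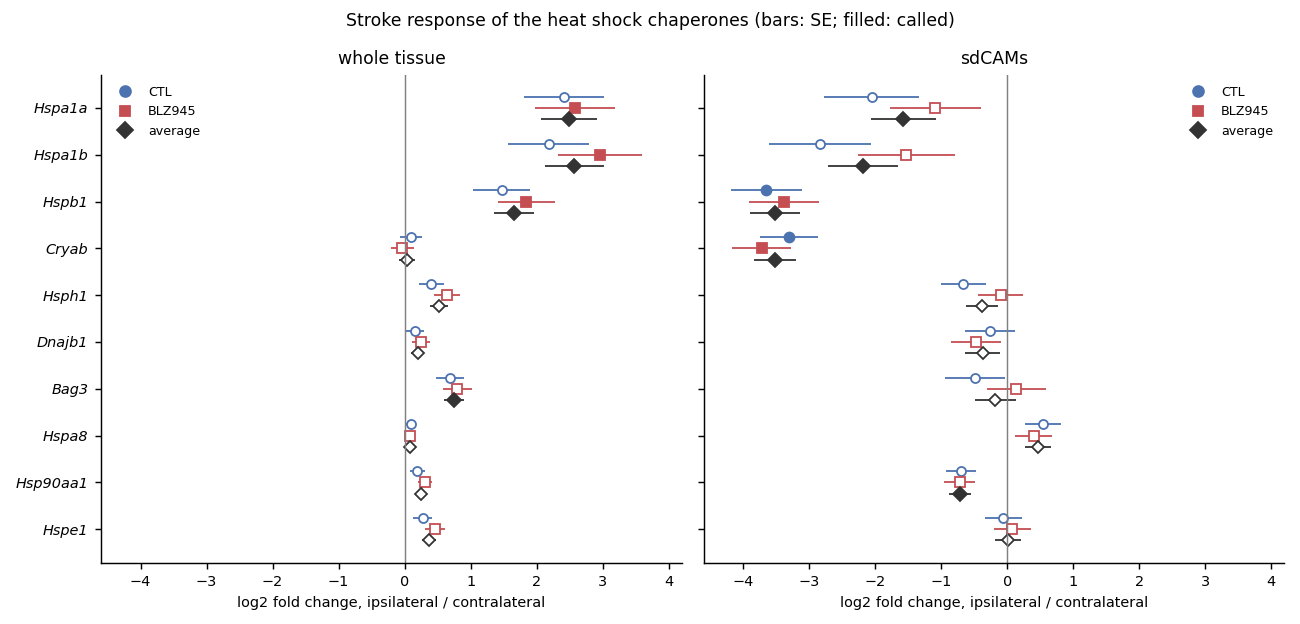
Log2 fold change of ipsilateral over contralateral libraries for each chaperone in tissue and in sdCAMs, by treatment and averaged (edgeR; bars are SE, filled symbols passed both thresholds). Hspa1a, Hspa1b and Hspb1 lie right of 0 in tissue and left of 0 in sdCAMs, and Cryab lies near 0 in tissue and left of -3 in sdCAMs.

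BLZ945 and CTL mice were compared within each hemisphere to ask whether prior replacement of the macrophages went with another chaperone level. In tissue 0 of 10 members passed on the ipsilateral side, where the log2 differences ranged from -0.33 to 0.42, and 0 of 10 on the contralateral side, where they ranged from -0.36 to 0.13. In sdCAMs 0 of 10 passed on either side, with log2 differences of -0.55 to 0.81 and of -0.52 to 0.20, and the difference between the stroke responses ranged from -0.41 to 1.31 (Hspa1b, SE 0.998). In these comparisons edgeR called 0% of all genes in either direction, no member had an unadjusted p under 0.05, and DESeq2 called no member. In contralateral sdCAMs the BLZ945 and CTL levels of Hspb1 and Cryab differed by less than their spread (65.0 ± 25.8 against 67.2 ± 37.2 CPM and 103 ± 41 against 113 ± 63.1 CPM, SD, n = 4 each). The cell type markers of these libraries differed by treatment too. Summed microglia markers were 4820 to 8740 CPM in BLZ945 and 9300 to 13000 CPM in CTL libraries. Mean choroid plexus epithelium sums were 16000 and 2330 CPM, with overlapping ranges, and endothelial sums overlapped. The part of these cell types in the treatment comparisons was not tested.

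Compared with tissue of the same hemisphere, sdCAM libraries held another mix of chaperones. The sdCAMs came from enzymatically digested and sorted brain and tissue RNA from whole tissue, so material and preparation cannot be told apart here. Summed immediate early genes were 3870 to 19600 CPM in contralateral sdCAMs and 421 to 939 CPM in contralateral tissue. The part of cell handling in these chaperone differences was not tested. On the contralateral side 5 members were called higher in sdCAMs, Hspb1 (3.89, SE 0.359, adjusted p = 2.75e-10, edgeR), Hspa1a (2.50, SE 0.465, adjusted p = 3.06e-05, edgeR), Hspa1b (2.12, SE 0.483, adjusted p = 0.000355, edgeR), Hspe1 (1.31, SE 0.151, adjusted p = 1.65e-08, edgeR) and Dnajb1 (0.85, SE 0.202, adjusted p = 0.000573, edgeR). Hsph1 (-2.48, SE 0.201, adjusted p = 1.98e-11, edgeR) and Hsp90aa1 (-1.38, SE 0.12, adjusted p = 8.77e-11, edgeR) were called lower. Calls were common in this comparison, 30.3% of genes higher and 37.1% lower. Hspa8 was lower by less than the fold threshold (-0.57, adjusted p = 0.000762, edgeR) and passed with the mouse as a block (-0.60).

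On the ipsilateral side Hspe1 (0.89, SE 0.159, adjusted p = 1.75e-05, edgeR) was the 1 member called higher in sdCAMs, and 6 were called lower, where 25.3% of genes were higher and 44.5% lower. These 6 were Hsph1 (-3.45), Cryab (-3.30), Hspa1b (-2.69), Hsp90aa1 (-2.40), Hspa1a (-1.62) and Hspb1 (-1.35), with adjusted p-values from 2.11e-14 to 0.00501 (edgeR). Without mouse D1 Hspa1a did not pass (-0.94, adjusted p = 0.0792). Hspa1a, Hspa1b and Hspb1 were thus higher in sdCAMs than in tissue on the contralateral side and lower on the ipsilateral side. Summed endothelial markers changed side too. They were 894 to 2770 CPM in contralateral sdCAMs and 199 to 263 CPM in contralateral tissue, and 56 to 196 against 209 to 311 CPM on the ipsilateral side. Choroid plexus epithelium sums had the same order of means, with overlapping ranges. Mural and fibroblast sums were higher in contralateral sdCAMs and overlapped tissue on the ipsilateral side (64.6 to 448 against 139 to 210 CPM). Mean oligodendrocyte and astrocyte sums were lower in sdCAMs on both sides. Microglia and CNS-associated macrophage sums were higher in sdCAMs on both sides. The part of such other cell types in these chaperone values was not tested.

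**Figure D5:**
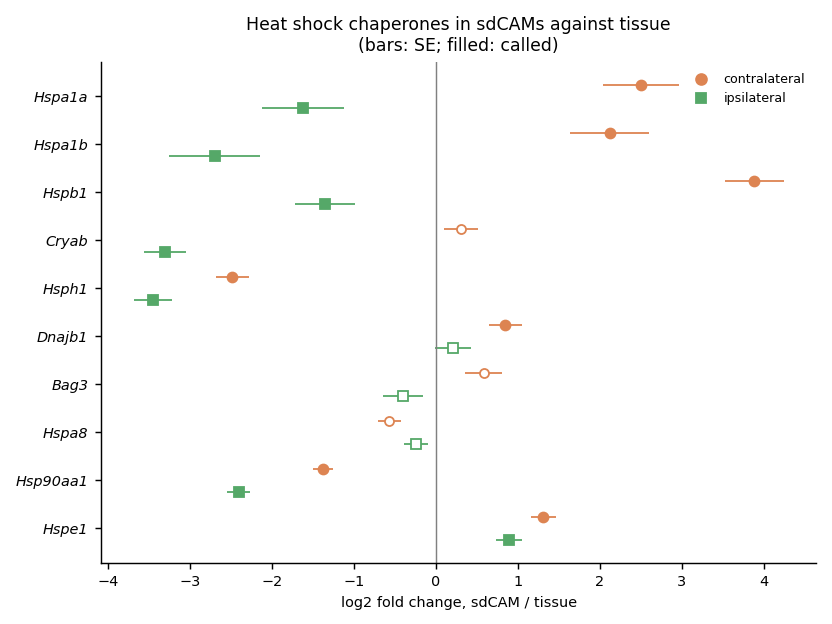
Log2 fold change of sdCAMs over tissue for each chaperone on the contralateral (circles) and ipsilateral side (squares), averaged over treatments (edgeR; bars are SE, filled symbols passed both thresholds). Hspa1a, Hspa1b and Hspb1 change side between hemispheres, while Hsph1 and Hsp90aa1 are lower and Hspe1 is higher in sdCAMs on both.

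Whether the stroke response itself differed between sdCAMs and tissue was tested in 1 model over all 30 libraries, a comparison chosen after the values had been seen. The difference of log2 fold changes, sdCAM minus tissue, was -5.24 (SE 0.516, adjusted p = 5.15e-08, edgeR) for Hspb1, -4.81 (SE 0.734, adjusted p = 2.61e-05, edgeR) for Hspa1b, -4.12 (SE 0.684, adjusted p = 7.28e-05, edgeR) for Hspa1a and -3.61 (SE 0.318, adjusted p = 1e-08, edgeR) for Cryab. Hsp90aa1 (-1.02, adjusted p = 0.000103), Bag3 (-0.98, adjusted p = 0.0363) and Hsph1 (-0.97, adjusted p = 0.0156) also passed in edgeR, which makes 7 of 10 members, against 17% of genes called lower and 2.35% higher. Dnajb1 (-0.64), Hspe1 (-0.42) and Hspa8 (0.33) did not pass. Hspa1a, Hspb1, Cryab and Hsp90aa1 passed under each of the 18 alternatives run, Hspa1b under each of its 17, Hsph1 under 16 and Bag3 under 10. Bag3 lost its call without mouse A3, C2, C3, C4 or D1, without a filter on low counts, with the A3 tissue libraries exchanged and with all 16 sdCAM libraries, and Hsph1 lost its call without A4 or C4. The marker values given for the sdCAM libraries apply to these differences too.

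Per length of exon sequence, the members kept a partly fixed order. The levels were not corrected for windows shared with other genes, 50.1% in Hspb1, 47.5% in Hsp90aa1, 39.4% in Hspa8, 22.8% in Hspe1 and 0% in Hsph1 and Bag3. Hspa8 was the highest of the 10 in every group, with group means of 120 to 189 CPM per kb, and Hspa1a had the lowest mean, 1.07 to 7.68 CPM per kb, although reads are divided uncertainly between it and Hspa1b, and in ipsilateral sdCAMs the pair did not differ beyond their spread (1.84 ± 1.84 and 1.87 ± 1.39 CPM per kb in CTL, SD, n = 3). In tissue Hsp90aa1 came next (105 to 130 CPM per kb), then Cryab and Hsph1, whose means did not differ beyond their spread (57.9 ± 5.39 and 52.2 ± 5.81 CPM per kb in contralateral CTL tissue, SD, n = 4). In contralateral sdCAMs Cryab (69.6 to 76.4 CPM per kb) and Hspb1 (63.0 to 65.2 CPM per kb) followed Hspa8 and did not differ beyond their spread. In ipsilateral sdCAMs that rank went to Hspe1 (37.4 to 39.3 CPM per kb) and Dnajb1 (30.6 to 34.6 CPM per kb), while Cryab held 5.26 to 7.71 and Hspb1 5.18 to 6.04 CPM per kb.

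The wider chaperone network was read from a list of 70 further genes, of which 69 were tested. In tissue averaged over treatments 2 were called higher and 0 lower: Hspb6, another small heat shock protein (0.81, adjusted p = 0.00402, edgeR), and Serpinh1, the collagen chaperone HSP47 (0.83, adjusted p = 0.00669, edgeR). With 1.93% of all genes called higher, this count stood near the background, and with the A3 libraries exchanged neither gene passed (0.54, adjusted p = 0.271, and 0.68, adjusted p = 0.154, edgeR). None of the 11 other HSP70 family members, 15 J-domain proteins, 16 cochaperones, 9 chaperonin subunits, 3 HSP90 family members or 5 heat shock factors was called there. The list's median log2 fold change was 0.04, against 0.445 over the 10 members.

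In sdCAMs averaged over treatments 6 of the 69 were called higher and 10 lower, beside 3.91% and 11.1% of all genes. The share called lower stood near the background, and the share called higher lay above it. The list's median log2 fold change was 0.10, against -0.16 over all genes, and the list was not tested as a set. Among those higher were the mitochondrial HSP60 Hspd1 (0.77, adjusted p = 0.00578, edgeR), the partner of Hspe1, and Hspa5 (0.84, adjusted p = 0.00624, edgeR) and Dnajb11 (0.64, adjusted p = 0.00593, edgeR), chaperones of the endoplasmic reticulum. Among those lower were Hspb2, the neighbour of Cryab in the genome (-5.98, adjusted p = 0.000779, edgeR), Hspb8 (-4.12, adjusted p = 0.00464, edgeR), Hspa2 (-3.29, adjusted p = 2.69e-05, edgeR), Serpinh1 (-3.29, adjusted p = 0.000779, edgeR) and Dnajb2 (-1.13, adjusted p = 0.00112, edgeR). Hspb2 had a mean of 0.11 CPM on the ipsilateral and 8.1 CPM on the contralateral side, so the size of its fold change rests on very few counts. Of the Cryab windows of 50 bases, 13.3% also occur in Hspb2 transcripts, so the division of some reads between the pair is uncertain. Of the 7 small heat shock proteins tested 3 were called lower, where 11.1% of all genes were, and Serpinh1 is a gene of collagen-making cells such as fibroblasts. Against tissue, Hspa5 was higher in sdCAMs on the contralateral (2.55) and the ipsilateral side (3.13), as was Hsp90b1 (1.47 and 1.91), both of the endoplasmic reticulum.

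The levels of the members moved together across tissue libraries. The log2 level of each member had a Pearson r of 0.669 to 0.932 with the mean of the other 9 over 16 tissue libraries, except Cryab at 0.133. Over 14 sdCAM libraries the values were 0.402 to 0.793 for 7 members, and 0.305 for Dnajb1, 0.233 for Hspe1 and -0.159 for Hspa8. These are descriptions over libraries that share mice and the hemisphere difference. Of 11776 genes ranked in tissue, those most like the mean of the members included Hspd1 (r = 0.958), Rasip1 (0.893) and Ccar1 (0.893), with Hspa9 (0.885) and Stip1 (0.851) further down. Of 11061 genes ranked in sdCAMs they were H3f3a (0.915), Ctla2a (0.905), Serping1 (0.898) and Mgst1 (0.897), none of them a chaperone.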

How the data were processed

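RNA-seq libraries of tissue (16) and sdCAMs (16) came from 8 mice, 4 CTL and 4 BLZ945. The authors prepared them with the Nextera XT kit, aligned single reads with STAR (version 2.7.11a in the submitters' processing notes), counted genes with featureCounts (2.0.8) and deposited raw counts as 1 table per material; whether counting used strand, and the build of these tables, are not given in the sources used here. Members and gene lists were chosen with earlier results of these data known. Groups were treatment by hemisphere, from the sample labels, and all libraries carry 1 batch label.

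Counts were tested with edgeR 4.0.16 (quasi-likelihood, TMM) in R 4.3.3, after a sum filter of 8 (tissue), 7 (sdCAM) or 15 counts (both together). DESeq2 1.42.0, other scaling and filters, the mouse as block, the A3 exchange, all 16 sdCAM libraries and leaving out each mouse were alternatives. The script was tested on simulated data. Hemispheres of a mouse pair by design: their deviations from the group means correlated at 0.312 to 0.723 in 8 tissue pairs and 0.078 to 0.302 in 6 sdCAM pairs. Replicates differed by more than sampling noise. Error from 50-base reads shared between paralogs was gauged on GENCODE M21 transcripts, whose exon lengths gave CPM per kb. Likeness used log2(CPM + 0.5) of genes with a mean CPM of at least 5. Named genes beyond the members were the list genes past the thresholds with the lowest p and the genes most like the members' mean. SE and SD cover these samples only, and the depths are given with the results. 1 gene among those most like the members' mean is not reported here.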

Additional observations from a re-analysis of the deposited data

Results flagged for a closer look

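In 5 of the 60 groups of 4 libraries examined, 1 library stood far above the other 3. For independent and normally distributed values the cutoff used is passed by chance in about 1 in 20 groups. That rate need not hold here, since the values were CPM without a log scale and the groups of different genes share libraries. In ipsilateral BLZ945 tissue, mouse D1 held 57.2 CPM of Hspa1a, with the next library at 10.5 CPM, and 132 CPM of Hspa1b, with the next at 24.9 CPM. In ipsilateral CTL tissue, mouse A2 held 595 CPM of Hsp90aa1, with the next library at 454 CPM. In contralateral CTL sdCAMs, mouse B1 held 48.2 CPM of Hspa1a, with the next library at 15.1 CPM, and mouse A3 held 207 CPM of Cryab, with the next at 91.1 CPM.

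The 2 left-out sdCAM libraries, which no comparison used, held some members above every contralateral library of the same treatment, on very few counts. In that of A3, Hspa1b had 12 counts, or 222 CPM, where the highest contralateral library held 85.0 CPM. In that of C2, Hsph1 had 9 counts (163 CPM, highest contralateral 77.6 CPM), Hspa1a 5 counts (90.7 CPM, 28.2 CPM) and Hspa1b 4 counts (72.5 CPM, 36.5 CPM).

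The stroke response differed between sdCAMs and tissue, by the test of that difference, for Hspa1a (-4.12 on the log2 scale), Hspa1b (-4.81), Hspb1 (-5.24), Hsph1 (-0.97), Hsp90aa1 (-1.02), Bag3 (-0.98) and Cryab (-3.61). This test was chosen with the values known.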

How the results depend on the processing

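Over all alternatives run, 1415 values kept their direction and their side of the threshold, 34 passed it anew, 44 no longer passed and 28 turned. With DESeq2, 2 members were called higher in CTL tissue, 5 in BLZ945 tissue and 5 lower in CTL sdCAMs. With the mouse as a block, which uses the pairing of hemispheres, 4 were called higher in CTL tissue, and the block changed no member's call other than those given in the results. BLZ945 against CTL could not be fitted with this block, since each mouse had 1 treatment. With the A3 tissue hemispheres exchanged, 0 were called higher in BLZ945 tissue and 0 in the average, and values turned for Hspa8 (CTL, -0.02) and Cryab (CTL -0.02, average -0.03). With all 16 sdCAM libraries, 2 were called lower in the average. Leaving out 1 mouse gave 0 to 2 members called higher in CTL tissue and 0 to 2 in BLZ945 tissue. The cause of these shifts was not tested.

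Values near 0 turned in other settings. In BLZ945 sdCAMs Hspe1 was -0.02 with DESeq2 and with its size factors, -0.17 with all 16 libraries and -0.09 with library size only. In the sdCAM average Hspe1 was -0.08 with DESeq2 and with its size factors, 0.00 with filterByExpr, -0.24 with all 16 libraries and -0.16 with library size only, and in CTL sdCAMs 0.07 with the block. In BLZ945 sdCAMs Hsph1 was 0.01 with all 16 libraries, and Bag3 -0.07 with all 16 libraries and -0.03 with library size only. The difference of responses of Hspa8 was -0.01 with all 16 libraries. Without 1 mouse at a time, Cryab in tissue ranged from -0.01 to 0.07 (average) and -0.11 to 0.01 (BLZ945), Hspe1 in sdCAMs from -0.13 to 0.09 (average), -0.34 to 0.11 (CTL) and -0.02 to 0.18 (BLZ945), Bag3 in BLZ945 sdCAMs from -0.01 to 0.28, Hsph1 there from -0.52 to 0.09, and Dnajb1 in ipsilateral sdCAMs against tissue from -0.01 to 0.38.

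Counts over all genes shifted more. CTL sdCAMs had 78 genes higher and 432 lower, against 277 and 1498 with DESeq2 and 23 and 270 with the block. CTL tissue had 84 higher, against 137 with DESeq2, 178 with the block and 0 with A3 exchanged, and BLZ945 tissue 213 higher against 334, 378 and 6. Scaling of the sdCAM libraries moved the median of all genes in the average from -0.16 to -0.24 (size factors) and -0.33 (library size only).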
